A study of Mus musculus with 30 samples.

Results

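Extracellular ATP, ADP and adenosine act as signals between neurons, glia, muscle and immune cells of the gut wall. The genes described here are 10 members of this system: the ATP-gated P2X channels *P2rx2*, *P2rx4* and *P2rx7*, the G protein-coupled P2Y receptors *P2ry1*, *P2ry2* and *P2ry12*, the adenosine receptor *Adora2b*, and the surface enzymes *Entpd1*, *Entpd2* and *Nt5e*, which break nucleotides down. They were chosen by name, for roles in purinergic signaling and by no rule on a measured value, though with earlier results of these data known. All 10 were found among 28586 gene symbols in the count tables.

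RNA came from the *muscularis externa* (*ME*) of the small bowel of naïve, unoperated mice and of mice at 3 h, 24 h or 72 h past intestinal manipulation (IM; groups IM3h, IM24h, IM72h), a surgical model of postoperative ileus. In the *RiboTag* fraction, ribosomes carrying an HA tag on RPL22 were precipitated, and mRNA bound to them was sequenced in 3 naïve libraries and 4 libraries at each later time. The mice of this fraction carry B6 Tg(Sox10-icre/ERT2)388Wdr/J and B6N.129 Rpl22tm1.1Psam/J, so the tag is switched on by tamoxifen in cells in which *Sox10* drives the recombinase, which include enteric glia. The second fraction is total *ME* RNA, with 3 naïve, 3 IM3h, 4 IM24h and 4 IM72h libraries. The methods describe male mice aged 10 to 12 weeks, given tamoxifen for 3 days, and anesthesia with isoflurane for IM, with no sham operation among the groups compared here. By the labels, naïve and IM3h mice of the *ME* fraction carry B6.Cg-Tg73.12Mvs/J(Gfap-cre) with the same *Rpl22* allele, and IM24h and IM72h mice carry the *Sox10* line, so that mouse line and time cannot be told apart in the *ME* at IM24h and IM72h, nor mouse line and fraction in naïve mice and at IM3h.

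As background, ATP released by stressed or active cells opens P2X channels and, with ADP and UTP, stimulates P2Y receptors. *Entpd1* (CD39) removes phosphates from ATP and ADP down to AMP, *Entpd2* prefers ATP and leaves ADP, and *Nt5e* (CD73) turns AMP into adenosine, the ligand of *Adora2b*. In the mouse gut, *Entpd2* protein is known from enteric glia, *P2rx2* from enteric neurons, *P2ry1* from the inhibitory signaling of nerves to the muscle layer, and *P2rx4*, *P2rx7* and *P2ry12* from cells of the macrophage lineage among others.

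Library totals ran from 3010306 to 7899493 estimated counts in *RiboTag* and from 6603170 to 12866062 in the *ME*. Summed over 6 glial markers, *RiboTag* levels were 1550 to 1871 CPM (counts scaled to a library size of 1e6 with TMM of edgeR) in naïve mice and 143 to 1454 at IM72h, where *Sox10* itself read 0 to 11.8, and all 6 were higher than in the *ME* in naïve mice. Markers of other cells were present in naïve *RiboTag* too. Those of smooth muscle summed to 4330 to 6623 CPM, of neurons to 507 to 1085, and of fibroblasts and *Pdgfra* cells to 640 to 751. Against naïve *ME*, 5 of 5 smooth muscle and 4 of 5 fibroblast markers were lower, and 2 of 8 neuronal markers higher. Which cells a *RiboTag* level comes from was not tested. The *RiboTag* libraries of IM24h and IM72h stand apart: 11392 to 16689 and 8644 to 11416 genes had a count, against 17162 to 19331 in naïve mice, and AY036118, a noncoding transcript that overlaps ribosomal RNA, took 22.2% to 59.2% and 58.0% to 80.1% of all counts, against 2.7% to 14%. The *ME* splits on AY036118 too, with 16.1% to 33.5% of counts in naïve mice and 24.1% to 25.1% at IM3h against 1.3% to 6.5% at IM24h and 2.3% to 3.7% at IM72h, and TMM factors of 0.674 to 0.891 in the former groups against 1.198 to 1.288 in the latter. All *ME* changes at IM24h and IM72h run along this split, and its part in them was not tested. By the library total or with no scaling, *P2rx2* and *Nt5e* lose their calls at both times. These calls held when AY036118 was left out of the counts and TMM was kept. A count of 3, taken as the detection floor, equals 1.31 to 2.87 CPM at IM72h. Levels were scaled once per fraction and are not compared between fractions by eye, and since tags of 3′ ends are not per length, levels are not compared between genes. In these bulk samples, fewer cells of a type and less RNA per cell cannot be told apart. All time points of a fraction share the same naïve libraries.

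The promoters of the 3 members that were higher in the *ME* at IM72h, *P2rx4*, *Entpd2* and *Adora2b*, are shown to give the sequence at the start of those genes. Sequences are from RefSeq on GRCm38.p6, cover 300 bases around the gene start, and read 5′ to 3′ on the plus strand, on which all 3 genes lie. They span chr5:122707294-122707593, chr2:25395624-25395923 and chr11:62248734-62249033. Capitals mark matches to the motifs named after them.
P2rx4: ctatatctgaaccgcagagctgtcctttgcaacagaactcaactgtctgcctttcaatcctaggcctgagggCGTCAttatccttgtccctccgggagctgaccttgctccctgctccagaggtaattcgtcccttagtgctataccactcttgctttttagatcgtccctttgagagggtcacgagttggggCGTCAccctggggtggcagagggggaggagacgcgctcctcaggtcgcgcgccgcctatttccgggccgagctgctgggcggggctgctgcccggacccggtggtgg
Entpd2: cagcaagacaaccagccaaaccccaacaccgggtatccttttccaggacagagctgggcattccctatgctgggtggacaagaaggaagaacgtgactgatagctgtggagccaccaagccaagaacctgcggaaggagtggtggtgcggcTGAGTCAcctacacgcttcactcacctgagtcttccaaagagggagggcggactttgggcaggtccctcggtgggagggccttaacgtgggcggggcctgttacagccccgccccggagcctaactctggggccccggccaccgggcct
Adora2b: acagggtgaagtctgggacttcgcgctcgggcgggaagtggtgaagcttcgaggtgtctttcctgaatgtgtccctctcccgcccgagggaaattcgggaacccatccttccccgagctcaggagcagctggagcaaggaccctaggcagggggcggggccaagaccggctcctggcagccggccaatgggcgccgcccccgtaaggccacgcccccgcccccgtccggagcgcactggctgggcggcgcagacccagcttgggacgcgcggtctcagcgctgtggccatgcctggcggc
The motifs searched on both strands were ACAAAG (SOX), TGACGTCA (the cyclic AMP response element), its core letters TGACG (which the full element also holds) and TGANTCA (AP-1). They occurred in 18.7%, 1.79%, 20.8% and 7.81% of 32851 promoters of this length. The *P2rx4* promoter holds the TGACG core at 2 places, both on the minus strand, the *Entpd2* promoter holds 1 AP-1 match (TGAGTCA), and none of these letters occur in the *Adora2b* window. Members with no called change against naïve *ME* held such letters too. These were 1 AP-1 and 1 SOX match in 1 *P2rx7* promoter, 1 SOX match in *P2ry12* and 1 TGACG core in each *Entpd1* promoter. The *P2ry1* promoter held none. A link between these letters and the changes was not tested. Promoters were matched for 9 of the 10 members, and that of *P2rx2* is not shown.

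*P2rx4*, a channel abundant in macrophages and other immune cells, rose in 2 steps in the *ME*, at IM24h and at IM72h. Naïve *ME* libraries held 22.8, 15.7 and 17.2 CPM and IM3h libraries 20.5, 18.4 and 21.4. The IM24h libraries held 45.9, 57.2, 50.6 and 41.0 CPM and the IM72h libraries 95, 77.8, 83.0 and 59.7. All IM24h libraries lay above all naïve and IM3h libraries, and all IM72h libraries above all IM24h libraries. In edgeR's quasi-likelihood fit, with Benjamini-Hochberg adjustment over all genes tested, the log2 fold change was 0.16 ± 0.18 (SE) at IM3h (adjusted p = 0.526), 1.38 ± 0.20 at IM24h (adjusted p = 0.000798) and 2.05 ± 0.19 at IM72h (adjusted p = 7.48e-06). IM24h exceeded IM3h by 1.31 ± 0.18 (adjusted p = 0.000739) and IM72h exceeded IM24h by 0.66 ± 0.17 (adjusted p = 0.0104), so that only naïve and IM3h are neighbours in the order of levels with no called difference. The last step is lost when 3 reference genes set the scale (adjusted p = 0.125), and the rises against naïve mice were called under each alternative run. Macrophage markers moved with it: 8 genes summed to 205 to 223 CPM in naïve *ME*, 166 to 187 at IM3h, 481 to 708 at IM24h and 1367 to 1677 at IM72h, with 5 and 7 of the 8 higher at the later times, and their part in the result was not tested.

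**Figure D1:**
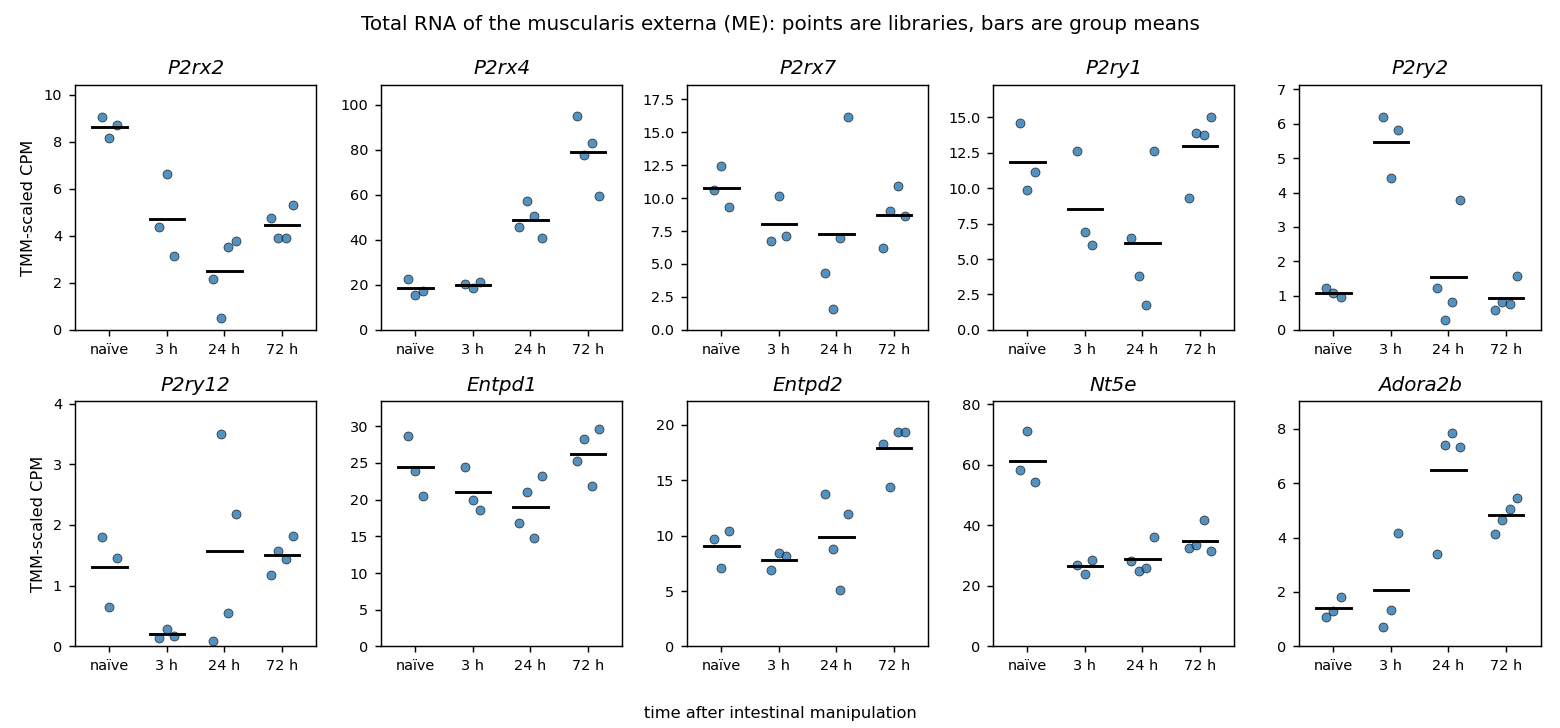
Level of each gene in total *ME* RNA (vertical axis, TMM-scaled CPM from 0, with its own range per panel) by time after intestinal manipulation, from naïve to 72 h (horizontal axis). Points are libraries (3, 3, 4 and 4) and bars are group means. *P2rx4* runs from 15.7 to 22.8 CPM in naïve libraries and from 59.7 to 95 at 72 h, and *Nt5e* from 54.2 to 71.1 in naïve libraries and from 24 to 41.7 at the later times.

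In the *RiboTag* fraction, *P2rx4* levels were 46.7, 32.9 and 56.5 CPM in naïve mice and 22.7, 9.21, 18.4 and 36 at IM3h. They were 31.2, 46.3, 144 and 56.4 at IM24h and 101, 19.3, 183 and 60.6 at IM72h. Naïve libraries overlapped with those of each later time, and the spread at IM24h and IM72h was wide. None of the changes was called (log2 fold changes of −1.02 ± 0.40, 0.63 ± 0.53 and 1.08 ± 0.84, adjusted p = 0.122, 0.704 and 0.604). Without IM3h library 4 the IM3h value was called lower (−1.38, adjusted p = 0.0207). From IM3h to IM24h the difference was 1.73 ± 0.56 (adjusted p = 0.141), which DESeq2 called (adjusted p = 0.0337). Against naïve *ME* RNA, naïve *RiboTag* mRNA was higher in *P2rx4* by 1.65 ± 0.26 (adjusted p = 0.00266).

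The estimated counts of *P2rx4* (ENSMUSG00000029470, chr5:122707544-122729738, plus strand of GRCm38) were split between kinds of annotated transcript, given here as a description. In the *ME*, protein-coding transcripts held 10.3 ± 2.91, 8.13 ± 1.02, 31.2 ± 5.57 and 47.7 ± 12.7 CPM (mean ± SD) in naïve mice and at IM3h, IM24h and IM72h, and retained-intron transcripts held 8.10 ± 0.653, 11.3 ± 1.01, 17.3 ± 4.66 and 31.2 ± 2.42. Both kinds were higher at the later times. In *RiboTag*, the coding share went from 21.6 ± 6.93 CPM in naïve mice to 9.13 ± 4.89, 8.21 ± 6.32 and 13.5 ± 14.6, while retained-intron transcripts held 23.8 ± 12.6, 11.8 ± 7.77, 61.2 ± 56.0 and 77.6 ± 59.0. The high *RiboTag* values at IM24h and IM72h lay mostly in retained-intron transcripts. The main one, P2rx4-208, is a single exon at chr5:122707569-122711463 whose last 300 bases hold 0 bases of a coding transcript's exon, and it took 49.5%, 45.2%, 73.6% and 62.8% of the *RiboTag* counts of the gene.

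**Figure D2:**
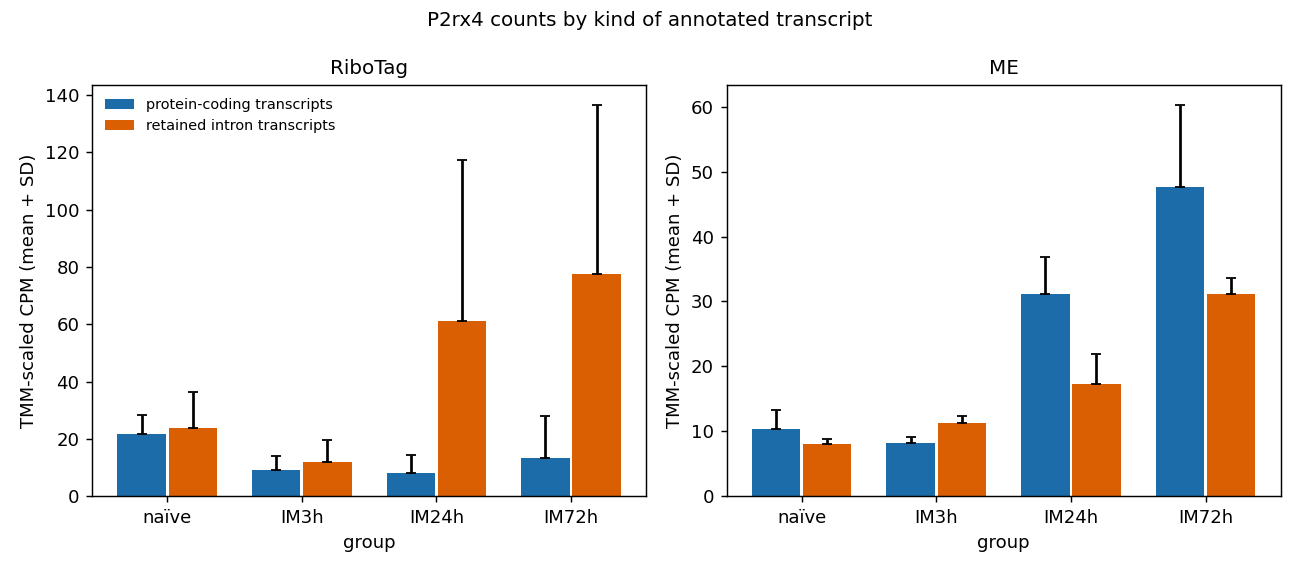
*P2rx4* level (vertical axis, mean TMM-scaled CPM with SD, from 0, with its own range per panel) assigned to protein-coding and to retained-intron transcripts, in *RiboTag* mRNA (left) and total *ME* RNA (right) of each group. In the *ME*, coding transcripts hold 47.7 CPM and retained-intron transcripts 31.2 at IM72h, and in *RiboTag* they hold 13.5 and 77.6.

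*P2rx2* encodes a channel of enteric neurons (ENSMUSG00000029503, chr5:110339812-110343212, minus strand). It had 9.05, 8.17 and 8.70 CPM in naïve *ME* libraries and 4.36, 6.63 and 3.15 at IM3h. At IM24h the libraries read 2.16, 0.500, 3.55 and 3.78, and at IM72h 4.78, 3.91, 3.92 and 5.32. Every library of an operated group lay below every naïve library. The log2 fold change was −0.82 ± 0.31 at IM3h (adjusted p = 0.0637), −1.79 ± 0.56 at IM24h (adjusted p = 0.0351) and −0.98 ± 0.20 at IM72h (adjusted p = 0.0019), called at the latter 2 times. The IM3h value was a call by the library total (−1.07, adjusted p = 0.031), with 3 reference genes (−1.23, adjusted p = 0.01) and without IM3h library 2 (−1.17, adjusted p = 0.0239). Both calls are lost when libraries are scaled by their total only or not at all, the IM72h call also in a fit of all 4 groups, and the IM24h call also with 3 reference genes and in 4 of 7 fits that left out 1 library (any naïve library, or IM24h library 1).

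Naïve *RiboTag* libraries had 8.21, 11.9 and 9.43 CPM of *P2rx2*. Values were 9.53, 6.84, 1.39 and 0.651 at IM3h and 8.64, 0.407, 0 and 1.71 at IM24h, and all 4 IM72h libraries had no count. At IM72h the groups do not overlap. Measured against the mean of the 3-count floors of the IM72h libraries, the mean level was at least 5.30-fold lower. The edgeR quasi-likelihood test called the difference (adjusted p = 0.0221), but it tests a difference from 0 and not this bound. With no count at IM72h, the gene passed the filter on low counts only through the naïve libraries. The exact permutation test gave p = 0.0286, the smallest it can give with 3 against 4 libraries. The edgeR call is lost without naïve library 1 or 3 and with no filter on low counts (adjusted p = 0.148). The 8 neuronal markers summed to 507 to 1085 CPM in naïve *RiboTag* libraries and 154 to 488 at IM72h. Of the 8, 1 was called lower, 7 were not called, and 2 had a change above 0. Their part in the result was not tested. The earlier differences of −1.04 ± 0.79 and −1.77 ± 1.48 were not called (adjusted p = 0.459 and 0.702).

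*P2rx7* codes for a channel that needs high ATP concentrations to open and is known for inflammasome activation (ENSMUSG00000029468, chr5:122643911-122691432, plus strand). In the *ME* it ranged from 9.31 to 12.5 CPM in naïve libraries, 6.75 to 10.2 at IM3h, 1.6 to 16.2 at IM24h and 6.21 to 10.9 at IM72h, with overlap throughout and no called change. The IM24h value of −0.57 became −1.32 and a call without IM24h library 4 (adjusted p = 0.0499), and with 3 reference genes the gene was called lower at IM3h (−0.78) and IM72h (−0.92). Its *RiboTag* libraries had 12.3, 15.1 and 5.66 CPM in naïve mice, 6.77, 6.08, 3.24 and 0 at IM3h, and 3.51, 0, 0 and 1.71 at IM24h. The IM72h libraries had 0, 0.875, 0 and 4.90. All libraries of IM24h and IM72h lay below the naïve ones (unadjusted exact permutation p = 0.0286 at both times), yet edgeR called neither (log2 fold changes of −2.92 ± 1.56 and −2.88 ± 1.70, adjusted p = 0.471 and 0.419). Most counts of the gene, 83.9% in *RiboTag* and 86.5% in the *ME*, were assigned to P2rx7-205, a single-exon retained-intron transcript at chr5:122682182-122684284. Its last 300 bases lie 100% within exons of coding transcripts, so 3′ tags there cannot be assigned to 1 transcript.

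Among the P2Y receptors, *P2ry2*, which responds to ATP and UTP, was higher at IM3h (ENSMUSG00000032860, chr7:100996568-101012866, minus strand). In the *ME* it read 1.21, 1.07 and 0.967 CPM in naïve libraries and 6.19, 4.42 and 5.81 at IM3h. It read 1.22, 0.300, 0.818 and 3.78 at IM24h and 0.587, 0.826, 0.754 and 1.56 at IM72h. The IM3h libraries lay above all others, and IM24h and IM72h overlapped with naïve. The rise at IM3h was 2.37 ± 0.39 on the log2 scale (adjusted p = 0.00126, called in all 6 fits that left out 1 library and in the 11 alternatives run), and 3 against 3 libraries cannot give an exact permutation p below 0.1. Markers of neutrophils summed to 0.845 to 0.860 CPM in naïve *ME* and 21.6 to 30.0 at IM3h (2 of 2 tested higher) and those of monocytes to 22.6 to 30.2 and 32.7 to 73.6 (3 of 3 tested higher), and their part in the result was not tested. From IM3h to IM24h the difference of −1.80 ± 0.73 was not called (adjusted p = 0.0918), though DESeq2 (adjusted p = 0.0459) and the fit of all 4 groups (adjusted p = 0.0291) called it, and without IM24h library 4 it was −2.74 and called (adjusted p = 0.00755). At IM24h and IM72h *P2ry2* did not pass the filter on low counts of the *ME* fits against naïve mice.

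*P2ry2* in *RiboTag* read 1.01, 1.80 and 1.30 CPM in naïve mice and 2.77, 3.32, 2.31 and 1.02 at IM3h, a difference of 0.84 ± 1.09 that was not called (adjusted p = 0.696). The difference between the fractions in their change at IM3h was not called (interaction of −1.45 ± 0.98, *RiboTag* minus *ME*, adjusted p = 0.557). One library at IM24h had 1.88 CPM, and the other 3 and all 4 at IM72h had no count. The naïve mean of 1.37 CPM lies below the floor of 3 of the 4 IM72h libraries and just above that of library 2 (1.31 CPM), so no fold is given for IM72h.

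*P2ry1*, the ADP receptor of inhibitory transmission to gut muscle (ENSMUSG00000027765, chr3:61002795-61008982, plus strand, partly covered by the antisense gene Gm37035), was not called in the *ME* at any time by the quasi-likelihood test on all libraries. Without IM24h library 4 its IM24h value went from −0.96 to −1.58 and was called (adjusted p = 0.0197), without IM3h library 1 that of IM3h went from −0.42 to −0.84 and was called (adjusted p = 0.0439), and at IM72h it was called higher by the library total (0.68) and with no scaling (1.04). Its *ME* range was 9.88 to 14.6 CPM in naïve mice, 5.97 to 12.7 at IM3h, 1.73 to 12.6 at IM24h and 9.31 to 15.1 at IM72h. *RiboTag* libraries read 1.90, 6.97 and 3.18 CPM in naïve mice, 2.54, 0.760, 2.43 and 0 at IM3h, and 2.5, 0, 0 and 1.52 at IM24h. Those of IM72h read 0, 0.438, 0 and 0. All IM72h libraries lay below the naïve ones and together held 1 count, against 104 in the naïve libraries, a ratio of 0.0344 (95% exact binomial interval 0.000862 to 0.196, for counting error only). The quasi-likelihood test of edgeR called this difference (adjusted p = 0.0154), as it did in the 7 fits without 1 library, while DESeq2, the fit of all 4 groups and the fit with no filter did not (adjusted p up to 0.173).

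*P2ry12*, the ADP receptor of platelets and microglia (ENSMUSG00000036353, chr3:59216272-59262871, minus strand), lies within *Med12l* on the opposite strand, and whether counting used strand is not given in the sources used here. Naïve *ME* libraries held 3 to 15 counts, or 0.645 to 1.81 CPM. All 3 IM3h libraries were lower, at 0.141, 0.295 and 0.166 CPM with 1 or 2 counts each, which is under the floor and did not pass the filter. Levels of 0.0940 to 3.50 CPM at IM24h and 1.17 to 1.82 at IM72h overlapped with naïve, and no change was called (log2 fold changes of 0.24 ± 1.0 and 0.11 ± 0.40). In *RiboTag*, naïve libraries had 0.126, 1.80 and 1.77 CPM, 3 of 4 libraries at IM3h and 3 of 4 at IM72h had no count, and no comparison was called.

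The adenosine receptor *Adora2b*, a receptor of low affinity that couples to cyclic AMP (ENSMUSG00000018500, chr11:62248984-62266453, plus strand), rose in the *ME*. Naïve libraries had 1.09, 1.29 and 1.81 CPM and IM3h libraries 0.703, 1.33 and 4.15. The later libraries had 3.39, 7.39, 7.82 and 7.34 CPM at IM24h and 4.11, 4.66, 5.05 and 5.45 at IM72h. All libraries of IM24h and IM72h lay above all naïve ones, and IM3h overlapped with naïve, with 1 library above it. The log2 fold change was 2.19 ± 0.49 at IM24h (adjusted p = 0.00774) and 1.74 ± 0.30 at IM72h (adjusted p = 0.000544), and the latter was called under all 11 alternatives. With 3 reference genes as the scale the IM24h call is lost (adjusted p = 0.0602). Beside the macrophage markers given with *P2rx4*, those of monocytes (3 and 4 of 4 higher, 152 to 228 CPM at IM24h and 104 to 149 at IM72h) and neutrophils (4 of 4 and 5 of 5 tested higher, 44.3 to 211 and 19.5 to 56.0 CPM) were higher in the same libraries, and their part in the result was not tested. The difference of IM72h from IM24h was not called (−0.46 ± 0.32, adjusted p = 0.275). In *RiboTag*, *Adora2b* read 1.90, 0.562 and 0.826 CPM in naïve mice and 0.463 to 0.760 at IM3h, and had no count at IM24h or IM72h. No fold is given, since the naïve mean of 1.09 CPM lies below the floor of each IM72h library and within the range of the floors at IM24h (0.376 to 1.32 CPM).

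*Entpd2*, the enzyme of enteric glia, had the largest ratio between the fractions of naïve mice among the 7 members tested there (ENSMUSG00000015085, chr2:25395874-25401321, plus strand, sharing 1971 bases, exons included, with *Npdc1* on the same strand). Naïve *RiboTag* libraries had 80.6, 78.9 and 69.6 CPM, and IM3h libraries 77.3, 49.6, 24.6 and 25.7. At IM24h the values were 34.6, 21.5, 0 and 18.4, and at IM72h 0, 39.8, 0 and 0. The IM24h and IM72h libraries all lay below the naïve ones, and IM3h overlapped with them. No difference was called by edgeR on all libraries: the log2 fold change was −0.73 ± 0.37 at IM3h (adjusted p = 0.234), −1.98 ± 0.87 at IM24h (adjusted p = 0.347, unadjusted exact permutation p = 0.0286) and −2.98 ± 1.87 at IM72h (adjusted p = 0.462). Without IM3h library 1 the IM3h value was −1.13 and called (adjusted p = 0.0475). IM72h library 2 decided the last value: without it the difference was called (adjusted p = 0.019), and 98.2% of the counts at IM72h lay in the noncoding transcript Entpd2-203, against 3.78% in naïve libraries. The same library had the lowest sum of glial markers, 143 CPM, and its part in the result was not tested. The sum of glial markers was 772 to 918 CPM at IM24h, below the 1550 to 1871 of naïve libraries. Of the 6 markers, 0 were called at IM24h and 1 had a change above 0. Their part in the lower *Entpd2* values was not tested.

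In total *ME* RNA, *Entpd2* was higher at IM72h. Levels were 9.65, 7.09 and 10.4 CPM in naïve mice, 6.89, 8.40 and 8.13 at IM3h. They were 13.7, 8.79, 5.09 and 11.9 at IM24h and 18.3, 14.4, 19.4 and 19.3 at IM72h. All IM72h libraries exceeded all others. The rise at IM72h was 0.93 ± 0.18 (adjusted p = 0.00128), and against IM24h it was 0.82 ± 0.28 (adjusted p = 0.0383), of which the second was called in only 2 of 8 fits without 1 library and both are lost with 3 reference genes (adjusted p = 0.251 and 0.281). Summed glial markers in the *ME* were 155 to 305 CPM at IM72h against 117 to 139 in naïve mice, with 3 of 6 higher and 1 lower, and their part in the result was not tested. The difference between the fractions in their change at IM72h was −3.96 ± 2.03 and was not called (adjusted p = 0.2). *RiboTag* IM72h library 2 decides this value too, since without it the difference was called (−13.49, adjusted p = 3.53e-05, a size that depends on the prior count), as it was by the library total (−5.99, adjusted p = 0.0351) and with no scaling (−6.67, adjusted p = 0.0217).

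**Figure D3:**
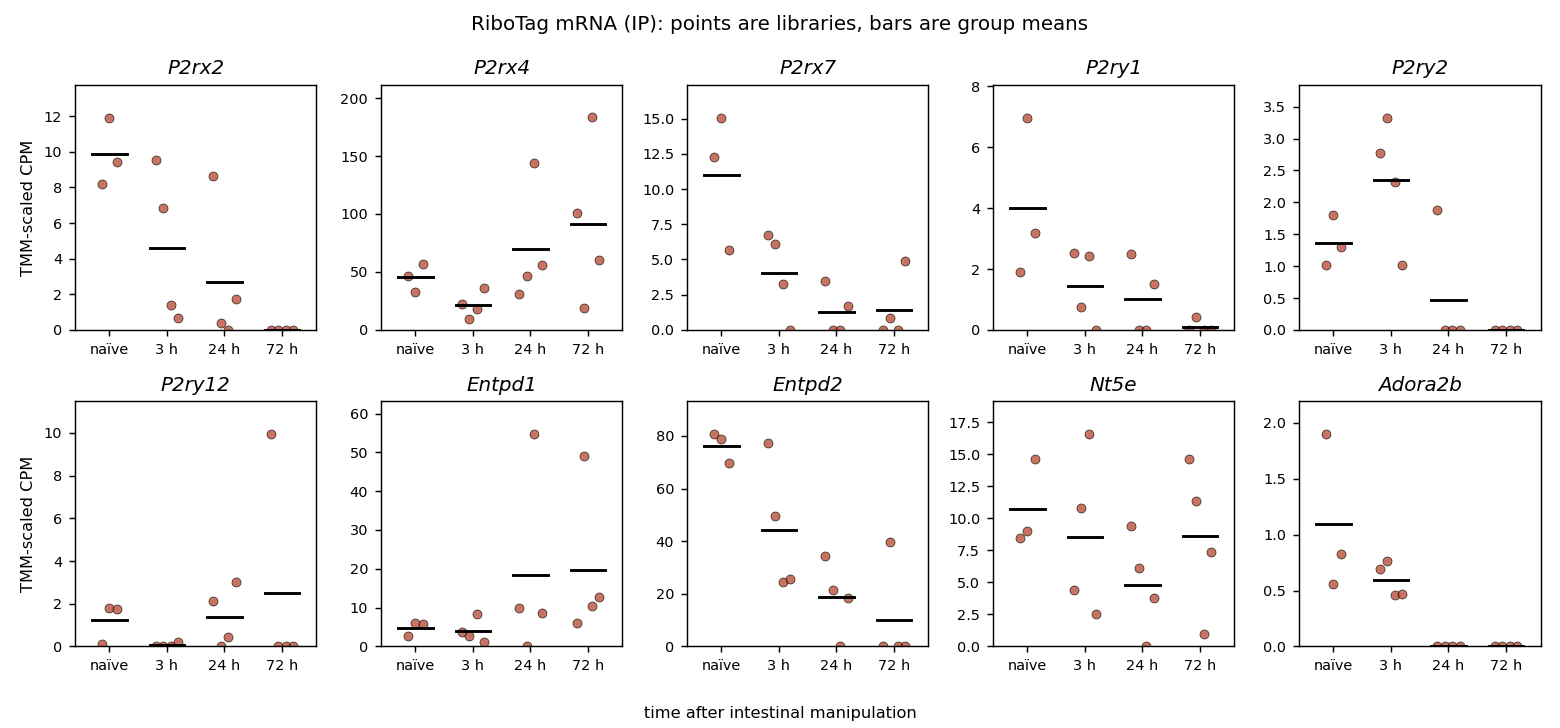
Level of each gene in *RiboTag* mRNA (vertical axis, TMM-scaled CPM from 0, with its own range per panel) by time after intestinal manipulation (horizontal axis). Points are libraries (3 naïve and 4 at each later time) and bars are group means. *Entpd2* runs from 69.6 to 80.6 CPM in naïve libraries, and at 72 h it is at 0 in 3 of 4 libraries, as *P2rx2* is in all 4.

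*Nt5e* makes adenosine from AMP (ENSMUSG00000032420, chr9:88327197-88372092, plus strand) and was called lower in the *ME* at all 3 times. Levels were 58.2, 71.1 and 54.2 CPM in naïve mice and 27.0, 24 and 28.4 at IM3h. They were 28.1, 24.8, 26.0 and 36.1 at IM24h and 32.6, 33.4, 41.7 and 31.4 at IM72h. Every operated library lay below every naïve one. The gene fell by 1.16 ± 0.15 (adjusted p = 0.000256), 1.09 ± 0.18 (adjusted p = 0.00189) and 0.84 ± 0.14 on the log2 scale (adjusted p = 0.000429), and the neighbouring later times were not called apart (adjusted p = 0.573 and 0.273), though the library total (0.96, adjusted p = 0.00223) and no scaling (0.71, adjusted p = 0.0173) called IM24h higher than IM3h, and no scaling called IM72h higher than IM24h (0.70, adjusted p = 0.00801). The IM3h call held under all 11 alternatives, while those of IM24h and IM72h are lost with the library total as the scale or no scaling, and at IM72h the value without scaling is 0.15. Smooth muscle markers, 5 genes, summed to 20884 to 21811 CPM in naïve *ME*, 15755 to 18718 at IM3h, 2842 to 10060 at IM24h and 11124 to 19545 at IM72h. Fibroblast and *Pdgfra* cell markers, also 5, summed to 1949 to 2064 in naïve mice, 881 to 987 at IM3h, 1108 to 2853 at IM24h and 3272 to 4008 at IM72h. Mesothelial markers, 4 genes, summed to 86.5 to 125 CPM in naïve mice and 1.77 to 11.7 at IM3h. At IM24h they summed to 6.49 to 73.7 and at IM72h to 30.1 to 71.3, with 4, 1 and 3 of the 4 called lower at the successive times. The part of these marker sets in the *Nt5e* result was not tested. *RiboTag* libraries had 8.47 to 14.6 CPM of *Nt5e* in naïve mice and overlapping values later, with no call.

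*Entpd1*, the enzyme of leukocytes and endothelium that degrades ATP and ADP (ENSMUSG00000048120, chr19:40612366-40741602, plus strand), did not pass the test against naïve mice in either fraction. Its values in the *ME* depend on the scale. At IM3h it was −0.16 with TMM and was called lower with 3 reference genes (−0.57, adjusted p = 0.0399). At IM72h it was 0.08 with TMM, and it was called lower with 3 reference genes (−0.52) and higher by the library total (0.68) and with no scaling (1.04). In the *ME* it ranged from 20.5 to 28.7 CPM in naïve mice, 18.6 to 24.5 at IM3h, 14.8 to 23.3 at IM24h and 21.9 to 29.6 at IM72h. The *RiboTag* values were 2.65, 6.07 and 5.78 CPM in naïve mice and 3.77, 2.75, 8.44 and 1.21 at IM3h. They were 10.02, 0, 54.6 and 8.55 at IM24h and 6.15, 49.0, 10.5 and 12.9 at IM72h. The IM72h libraries all lay above the naïve ones, with a difference of 2.0 ± 1.53 that was not called (adjusted p = 0.593, exact permutation p = 0.229). Macrophage markers in *RiboTag* summed to 97.1 to 183 CPM in naïve mice and 219 to 595 at IM72h, where 1 of the 8 had no count in any library and 1 was called higher and 1 lower, and their part was not tested.

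Counted over the genes, none of the 8 members tested in *RiboTag* at IM3h and none of the 9 at IM24h had an adjusted p under 0.05 in edgeR or DESeq2. Of all genes tested, 13.3% and 0.497% were called. At an unadjusted p under 0.05 there was 1 member at each time, *P2rx4* lower at IM3h and *Entpd2* lower at IM24h, and both also passed the threshold used by the study, an unadjusted p under 0.05 with more than a 2-fold change, which 20.7% and 12.5% of all genes passed. At IM72h, 2 of 8 members were lower (*P2rx2* and *P2ry1*), against 16.1% of all genes called, and the same 2 at the threshold of the study, which 22.5% passed. The median log2 fold change of the members tested was −0.88, −1.32 and −1.60 at the 3 times, and that of all genes was −0.04, −0.11 and −0.40.

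In the *ME*, 1 member was higher and 1 lower of 8 tested at IM3h (32.7% of all genes called), 2 were higher and 2 lower of 9 at IM24h (29.0%), and 3 were higher and 2 lower of 9 at IM72h (57.5%). By the threshold of the study the counts were 2, 4 and 2, against 18.5%, 23.4% and 32.8% of all genes. Against these shares, the counts are no result about the members. Their median log2 fold change was −0.27, −0.36 and 0.09, with 0.00, 0.02 and 0.02 for all genes. Between IM3h and IM24h, 1 of 9 members was called in the *ME* (27.6% of all genes; 3 members and 22.6% of genes by the threshold of the study), and between IM24h and IM72h 2 of 9 (38.5%; 1 member, *P2ry1*, and 25.2%). In *RiboTag*, edgeR called 0 of 7 members from IM3h to IM24h (1.90% of all genes) and 0 of 4 from IM24h to IM72h (0% of all genes, with 590 genes at an unadjusted p under 0.05). DESeq2 and the threshold of the study each gave *P2rx4* in the first of these (14.1% of genes by that threshold) and no member in the second (6.27%).

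**Figure D4:**
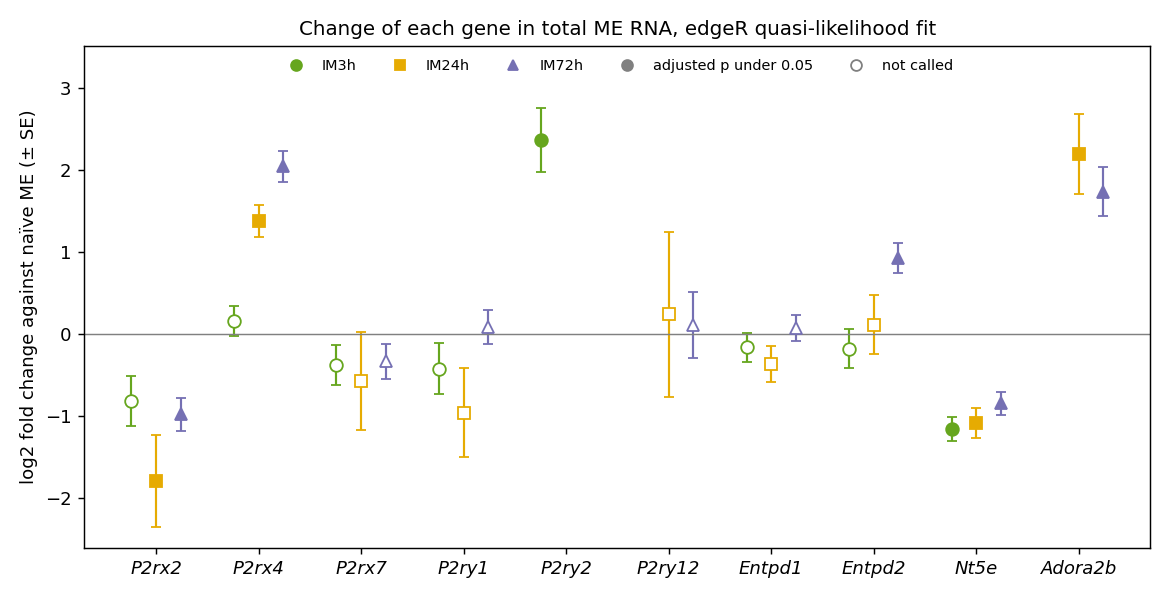
Log2 fold change against naïve mice (vertical axis, ± SE, edgeR) of each gene in total *ME* RNA at IM3h, IM24h and IM72h. Filled symbols have an adjusted p under 0.05, and a gene that did not pass the filter on low counts has no symbol. *P2rx4* reaches 2.05 and *Adora2b* 1.74 at IM72h, and *Nt5e* lies between −1.16 and −0.84, its IM72h value turning positive (0.15) without scaling.

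Between the fractions of naïve mice, *Entpd2* and *P2rx4* were higher in *RiboTag* and *Nt5e* and *Entpd1* higher in the *ME*. The log2 ratio of *RiboTag* to *ME* was 3.42 ± 0.21 for *Entpd2* (adjusted p = 4.74e-05), −2.15 ± 0.26 for *Nt5e* (adjusted p = 0.00075) and −1.97 ± 0.37 for *Entpd1* (adjusted p = 0.00534), and these and the *P2rx4* call held in all 9 alternatives and all 6 fits without 1 library. *P2rx2* (0.55 ± 0.33), *P2rx7* (0.39 ± 0.40) and *P2ry1* (−1.20 ± 0.52) were not called. Without naïve *RiboTag* library 2 *P2ry1* was −1.89 and called (adjusted p = 0.0186), and the library total called *P2rx2* (1.28, adjusted p = 0.0224). That is 4 of 7 members tested, where 26.1% of all genes were called. The threshold of the study added *P2ry1* as lower (25.6% of all genes). Counts of the fractions come from tables that were quantified separately.

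At IM3h, *Entpd2* remained higher in *RiboTag* by 2.88 ± 0.44 (adjusted p = 0.00157) and *Entpd1* lower by a log2 ratio of −2.0 ± 0.56 (adjusted p = 0.0273). The latter was called in only 2 of 7 fits without 1 library (lost without IM3h *RiboTag* library 1 or 2 or any *ME* library of IM3h). These are 2 of 8 members (24% of all genes called), and *Nt5e* is added by the threshold of the study (26.3%). For IM24h, 1 of 9 was called, *Adora2b*, which had no count in *RiboTag* (12.5% of all genes; 2 members and 25.2% by the threshold of the study), and the call is lost without *ME* IM24h library 3 or 4 (adjusted p up to 0.0556). The *Entpd2* ratio was then 1.30 ± 1.02 (adjusted p = 0.448) and *Entpd2* became a call, at 1.73, without both libraries in which AY036118 held over 50% of counts. At IM72h, *P2rx2*, *P2ry1* and *Adora2b* were lower in *RiboTag*, 3 of 9 (30.7% of all genes, and 36.9% by the threshold of the study with the same count). All 3 had no count or 1 count in *RiboTag* at that time. *Nt5e* was not called by edgeR at IM24h or IM72h, but alternatives called it lower in *RiboTag*. At IM24h they included DESeq2 (−2.23, adjusted p = 0.0197) and the fit without both libraries rich in AY036118 (−1.80, adjusted p = 0.0211). At IM72h they were the library total (−3.07, adjusted p = 0.0293), no scaling (−4.73, adjusted p = 0.00447), 3 reference genes (−2.68, adjusted p = 0.0287) and DESeq2 (−1.56, adjusted p = 0.0489).

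**Figure D5:**
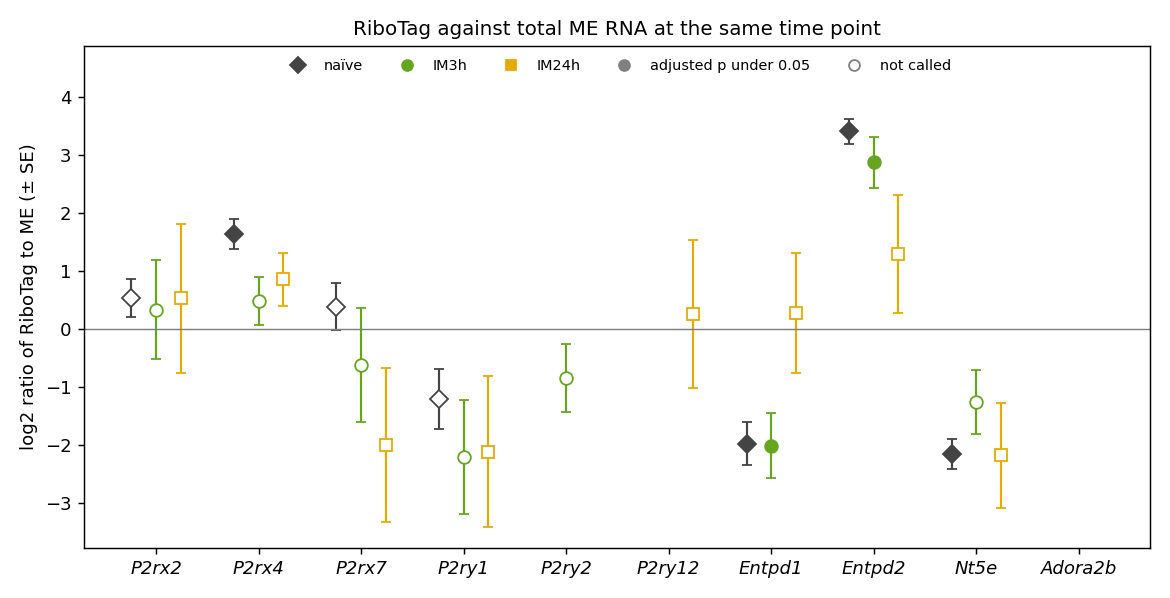
Log2 ratio of *RiboTag* to total *ME* RNA (vertical axis, ± SE, edgeR) of each gene, for naïve mice, IM3h and IM24h. Filled symbols have an adjusted p under 0.05, and genes that were not tested or had at most 3 counts in every library of a group, such as *Adora2b*, have no symbol. *Entpd2* lies at 3.42 and 2.88 in naïve mice and at IM3h, and *Nt5e* and *Entpd1* lie below 0 in naïve mice.

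Whether a change against naïve mice differed between fractions was tested as an interaction for all 10 members. At IM3h none was called by edgeR or DESeq2 or at an unadjusted p under 0.05 (1.65% of all genes called, and 11.2% by the threshold of the study). At IM24h none was called by edgeR (0.537% of all genes), while *Adora2b* had an unadjusted p of 0.000817 and passed the threshold of the study (13% of genes) and DESeq2. At IM72h, 4 of 10 were called, *P2rx2*, *P2ry1*, *P2ry2* and *Adora2b*, each with a lower change in *RiboTag* (23.2% of all genes called, and 33.0% by the threshold of the study, with the same 4). DESeq2 did not call *P2ry2* (adjusted p = 0.0508) and called *P2rx7* (−2.41, adjusted p = 0.0438) and *Entpd1*, the latter in the other direction (2.03, adjusted p = 0.0387). The 4 members called by edgeR are those whose *RiboTag* libraries of IM72h held no count or 1 count, so the fitted size of their differences depends on the prior count. The 6 others had differences between −3.96 and 1.77 and were not called by edgeR on all libraries. Without *RiboTag* IM72h library 4, *P2rx7* was called (−4.76, adjusted p = 0.00578), and the library total and no scaling each called *P2rx4*, *P2rx7* and *Entpd2* as lower.

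Other genes of the pathway were read from 6 lists of 39 genes. In the *ME*, 7 were higher and 4 lower of 26 tested at IM3h, 4 and 6 of 29 at IM24h, and 16 and 6 of 32 at IM72h, beside 32.7%, 29.0% and 57.5% of all genes called. Of other P2Y receptors, 4 of 4 tested were higher at IM72h, where macrophage, monocyte and neutrophil markers were higher in 7 of 8, 4 of 4 and 5 of 5, whose part was not tested. Among them was *P2ry6*, the UDP receptor, which was at 4.4 ± 0.774 CPM in naïve *ME* and 22.1 ± 2.97 at IM72h (2.27 ± 0.19, adjusted p = 4.41e-06). *P2rx5*, another ATP-gated channel, was at 0.600 ± 0.548 and 6.18 ± 1.16 CPM (3.48 ± 0.56, adjusted p = 0.000319). The lists for adenosine receptors, ectonucleotidases, nucleotide release and adenosine uptake and turnover had 1, 5, 2 and 3 higher and 0, 1, 2 and 3 lower. *Slc29a1*, which carries adenosine into cells, fell by 0.89 ± 0.12 at IM3h (adjusted p = 0.000426), by 2.42 ± 0.34 at IM24h (adjusted p = 0.000752) and by 1.72 ± 0.18 at IM72h (adjusted p = 1.88e-05).

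In *RiboTag*, 2 of 29 pathway genes were higher at IM3h and none lower (13.3% of all genes called). *Panx1*, a channel through which ATP leaves cells, went from 13.7 ± 1.35 CPM in naïve mice to 51.7 ± 8.33 (1.97 ± 0.28, adjusted p = 0.000972), and *Entpd7*, an enzyme of intracellular membranes, rose by 1.98 ± 0.45 (adjusted p = 0.0134). *Panx1* rose in the *ME* at the same time by 1.05 ± 0.21 (adjusted p = 0.00385). At IM24h 0 of 27 were called by edgeR (0.497% of all genes), and at IM72h 6 of 23 were lower and none higher (16.1%). In naïve mice, 4 of 25 were higher in *RiboTag* than in the *ME* and 3 lower (26.1%). *Gjc3*, a connexin of glia, led these with 3.06 ± 0.29 (adjusted p = 0.000274), and *Slc29a1* was lower (−2.62 ± 0.31, adjusted p = 0.000679).

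The genes most like each member across the libraries of a fraction are given as a description, by Pearson's r of log2 CPM, and libraries of 1 group, depth and time are shared by all of them. Over the 14 *ME* libraries and 17918 genes, *P2rx4* was closest to *Sirpa* (r = 0.988), *Psap* (0.985) and *Polr2e* (0.982), *Adora2b* to *Igdcc4* (0.942), and *Nt5e* to *Slc35d3* (0.942). *Entpd2* was closest to *Mrps36* (0.938) in the *ME*. Over the 15 *RiboTag* libraries and 17929 genes it was closest to *Abhd4* (0.989), *Ergic1* (0.987) and *Slc35a4* (0.987).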

How the data were processed

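The authors made 3′ mRNA libraries (QuantSeq), sequenced them single-end and used Partek Flow with cutadapt and STAR on mm10 and Ensembl transcripts. The deposited tables hold estimated counts, not scaled for library size, per transcript for *RiboTag* and per gene and per transcript for the *ME* (the gene table was used for tests, the transcript table for shares of transcripts and as an alternative), and list only features with a total of at least 10 counts, so that a *RiboTag* gene listed at 0 may leave out a transcript under this limit. Libraries were grouped by the group entry of their line, since their names match no label, and libraries are numbered in name order. Of 4 naïve *RiboTag* samples in the labels, 3 have values in the tables. The authors' comparison tables, which hold fold changes and p-values, were not used.

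Counts were summed by symbol, rounded and tested with TMM, filterByExpr and the two-sided quasi-likelihood test of edgeR 4.0.16, run under R 4.3.3 beside limma 3.58.1, on the libraries of the groups compared, with Benjamini-Hochberg adjustment over all genes tested and calls at an adjusted p under 0.05. Standard errors are the log2 fold change divided by the root of F. Over all libraries of a fraction, 9 members passed the filter in *RiboTag* and 10 in the *ME*. Single levels were also compared by exact two-sided permutation, not adjusted over genes. The study counts mice as replicates, while the labels do not tie libraries to mice. All members are named. Of each pathway list, at most the 2 genes with the smallest adjusted p in a comparison are named, and the 3 genes most correlated with a member. Members and lists were chosen with earlier results of these data known. Positions are from GENCODE for GRCm38. DESeq2 1.42.0, other scalings and filters, the threshold of the study and leaving out each library were alternatives, and leaving out both IM24h *RiboTag* libraries rich in AY036118 was added after seeing the data. Tests were checked on simulated data.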

Additional observations from a re-analysis of the deposited data

Results flagged for a closer look

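In groups of 4 libraries, 7 of 46 combinations of member and group had 1 library that Dixon's ratio sets apart. In 5 of the 7 the other 3 libraries had no count, where the ratio is always 1 whatever the size of the remaining value, so the usual chance of about 1 in 20 does not apply to them. Those are given as values only. In *RiboTag* at IM72h these were library 2 for *Entpd1* (49.0 CPM, next 12.9), for *Entpd2* (39.8, with 0 in the others) and for *P2ry1* (0.438, or 1 count), and library 1 for *P2ry12* (9.93, with 0 in the others). Library 2 of IM72h also had the lowest sum of the 6 glial markers, 143 CPM against 948 to 1454 in the other libraries of its group.

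*P2ry2* had 1.88 CPM in library 1 of *RiboTag* IM24h and no count in the other 3. *P2ry12* had 2 counts (0.186 CPM) in library 4 of *RiboTag* IM3h and none in the others, which is under the floor of 3 counts and no measurable difference between libraries of the group, and the same holds for the 1 count of *P2ry1* among the IM72h libraries. In the *ME* at IM24h, *Adora2b* was low in library 1 (3.39 CPM, next 7.34), and its call at IM24h held without that library.

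The changes of 4 members from naïve to IM72h differed between the fractions in the interaction test of edgeR. The log2 difference, *RiboTag* minus *ME*, was −8.54 for *P2rx2* (adjusted p = 0.000831), −5.06 for *P2ry1* (adjusted p = 0.00751), −6.44 for *P2ry2* (adjusted p = 0.00658, and 0.0508 in DESeq2, which did not call it) and −8.10 for *Adora2b* (adjusted p = 0.00187). The *RiboTag* libraries of IM72h held no count of these genes, except 1 count of *P2ry1*, so these sizes depend on the prior count and are no bounds. The naïve *RiboTag* mean of *Adora2b* (1.09 CPM) lies below the 3-count floor of each IM72h library, and that of *P2ry2* (1.37 CPM) below the floor of 3 of the 4, so neither call shows a fall in *RiboTag*.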

How the results depend on the processing

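No paired analysis was possible because the tables carry no replicate numbers. Members called in edgeR were 0, 0 and 2 in *RiboTag* at IM3h, IM24h and IM72h, 2, 4 and 5 in the *ME*, 0 and 0 between neighbouring times in *RiboTag* and 1 and 2 in the *ME*, 4, 2, 1 and 3 between the fractions, and 0, 0 and 4 in the interactions. These moved by over 1.5 times, or to or from 0. The threshold of the study gave 1 in *RiboTag* at IM3h and at IM24h, 2 in the *ME* at IM72h, 1 and 3 from IM3h to IM24h in *RiboTag* and the *ME*, 1 from IM24h to IM72h in the *ME*, 2 between the fractions at IM24h and 1 in the interaction at IM24h. DESeq2 gave 1 in *RiboTag* at IM72h, 1 and 3 from IM3h to IM24h in *RiboTag* and the *ME*, 2 between the fractions at IM24h and 1 in the interaction at IM24h. In *RiboTag* at IM72h, 0 were called with no filter and 1 without AY036118 or with all 4 groups in one fit, which gave 4 from IM3h to IM24h and 4 from IM24h to IM72h in the *ME*. Scaling by 3 reference genes gave 5 and 2 in the *ME* at IM3h and IM24h, 0 from IM24h to IM72h in the *ME* and 1 between the fractions at IM3h. The library total gave 2 in the *ME* at IM24h, 5 from IM3h to IM24h in the *ME*, and 2 and 7 in the interactions at IM24h and IM72h. No scaling gave 2 in the *ME* at IM24h, 3 and 5 between its neighbouring times, 7 between the fractions at IM72h, and 1 and 7 in the interactions at IM24h and IM72h. Leaving out both IM24h *RiboTag* libraries rich in AY036118, chosen after seeing the data, gave 3 between the fractions at IM24h and 1 in the interaction. The cause of these shifts was not tested, but scaling moves all genes: in the *ME* at IM72h their median log2 fold change was 0.62 by the library total, 0.98 with no scaling and −0.58 by reference genes, at IM24h 0.66, 0.53 and −0.35, and in *RiboTag* at IM72h −2.13, −2.60 and −2.07.

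Over all genes, in *RiboTag*, the 2134 genes called at IM3h became 548 with 3 reference genes and 34 with all 4 groups. The 76 at IM24h became 1 by the library total, no scaling or reference genes, 47 with all 4 groups, 238 with no filter, 858 in DESeq2 and 153 without both libraries rich in AY036118. The 2191 at IM72h became 3322 with no scaling, 34 with no filter and 1258 with all 4 groups. From IM3h to IM24h, 270 became 87 by the library total, 52 by reference genes, 45 with all 4 groups, 613 with no filter and 1166 in DESeq2, and from IM24h to IM72h 0 became 108 in DESeq2, 36 with no filter, 628 with all 4 groups, 9 with reference genes and 853 without those libraries. In the *ME*, 5020 at IM3h became 2134 with no scaling, and by reference genes 4741 at IM24h became 2617, 4465 from IM3h to IM24h became 1869 (8178 by the library total) and 6272 from IM24h to IM72h became 4109. Between the fractions, reference genes gave 2436 in place of 3862 in naïve mice (2415 with no scaling), 1525 in place of 3803 at IM3h and 634 in place of 1831 at IM24h, where DESeq2 gave 3507, the library total 999 and leaving out those libraries 3764, and no scaling turned 4460 at IM72h into 8478. In the interactions, 292 at IM3h became 39 by reference genes, 138 with no scaling and 791 in DESeq2, 95 at IM24h became 56 by reference genes, 453 by the library total, 860 in DESeq2 and 565 without those libraries, and 3904 at IM72h became 7266 by the library total and 9120 with no scaling.

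Leaving out 1 library gave 0 to 1, 0 to 0 and 1 to 3 members in *RiboTag* at IM3h, IM24h and IM72h, 2 to 4, 3 to 6 and 5 to 5 in the *ME*, 0 to 0 in both between neighbouring times in *RiboTag*, 1 to 2 and 1 to 4 in the *ME*, 4 to 5, 1 to 3, 0 to 3 and 3 to 5 between the fractions, and 0 to 0, 0 to 1 and 3 to 5 in the interactions. Further calls gained without 1 library were, between the fractions, *Nt5e* (without *RiboTag* library 3) and *P2ry1* (without 4) as lower at IM3h, *Entpd2* as higher and *Nt5e* as lower at IM24h (without *RiboTag* library 3), and *Entpd2* (without *RiboTag* library 2) and *P2rx7* (without 4) as lower at IM72h. In the *ME* they were *Adora2b* from IM3h to IM24h (without IM3h library 3 or IM24h library 1) and *P2ry1* and *Entpd1* from IM24h to IM72h (without IM24h library 4), all higher, and in the interaction at IM24h *Adora2b* (without *RiboTag* library 1 or 3). Signs turned with a call in 8 cases: *Nt5e* lost one and 7 gained one. *Nt5e* in the *ME* at IM72h was 0.15 with no scaling, and *Entpd1* was −0.52 there with 3 reference genes and 0.69 from IM3h to IM24h by the library total. Between the fractions at IM72h, *P2rx4* was −2.93 and *Entpd1* −3.18 with no scaling, *Entpd1* −1.32 without *RiboTag* IM72h library 2 (up to 0.17 without another library), and *P2ry12* −6.66 without library 1, which also gave −6.76 in the interaction (up to 1.096 without another library).

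Of the values, 1264 under other settings and 1108 without 1 library kept direction and side of the threshold, and 94 and 61 changed sign without a call. In *RiboTag* at IM72h, 3 counts equal 1.31 to 2.87 CPM, and the naïve means of *P2ry12* and *Adora2b* lie below that range.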
